A study of Mus musculus with 15 samples.

Results

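Heart muscle cells of the mouse embryo beat and divide at the same time, and the cells described here are those whose RNA placed them in or near division. A cell was taken from the E8.25, E8.75 and E9.25 libraries if it had at least 1000 detected genes, at least 2000 CPM of Tnnt2 (cardiac troponin T) and at least 3 of the 5 genes Top2a, Mki67, Ccnb1, Cdc20 and Cenpf at 50 CPM or more. CPM scales the counts of every cell to the same total. Of the 1400 cells of the series, 816 cells of these stages were Tnnt2-high, and 460 of them (56.4%) passed the gate. They are called gated cells below, and since they were chosen by the measured levels of these genes, those levels are no finding. The comparison cells were the 218 Tnnt2-high cells with at most 1 gate gene at 50 CPM, and the other 138 Tnnt2-high cells had exactly 2.

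The study profiled single cells of hearts from mice carrying Isl1Cre or Nkx2-5Cre together with the Rosa26tdTomato reporter, which a cell and its descendants keep once Cre has acted. Used here are 11 libraries of 6 groups (Isl1Cre and Nkx2-5Cre at E8.25, E8.75 and E9.25) with 2 libraries per group and 1 for Isl1Cre E9.25, and total counts of 8186728 to 21288472 per library. Titles of the libraries of a group carry the same embryo number, so a group was treated as 1 embryo. Lineage and stage therefore cannot be told apart from the embryo that stands for each. The cells had been taken up singly with a mouth pipette after trypsin treatment, with or without FACS, and no cell name occurred in more than 1 library. Each Cre stands for a population that had expressed Isl1 or Nkx2-5 at some time, not for cells that express it now.

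In a dividing cell, DNA is copied in S phase, and after G2 the chromosomes condense, attach to the spindle and part in M phase. The genes of S phase are switched on through E2F factors. Many genes of G2 and M are held down outside division by the DREAM complex, which acts through a promoter element called the CHR (cell cycle genes homology region), often with CCAAT boxes bound by NF-Y. Before birth the heart grows largely by division of its muscle cells, which take their sarcomeres apart locally when they divide.

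Promoter sequence is shown for 4 genes of a G2 and M phase list (the mitosis list: spindle, kinetochore, chromosome and cyclin genes without the 5 gate genes), because that list moved together in the gated cells. The 4 were picked from members whose window holds the CHR core letters given below. Kif11 encodes the motor that pushes spindle poles apart, Ckap2l and Ckap5 encode spindle microtubule proteins, and Hmgb2 encodes a chromatin protein. The windows are the 100 bases upstream of the annotated start in RefSeq GRCm38.p6, read along the gene: chr19:37376282-37376381 (plus strand) for Kif11, chr2:129297213-129297312 (minus) for Ckap2l, chr8:57511743-57511842 (plus) for Hmgb2 and chr2:91526662-91526761 (plus) for Ckap5. Capitals mark TTTGAA or its reverse complement TTCAAA, the core letters of the CHR, and CCAAT or its reverse complement ATTGG.
Kif11: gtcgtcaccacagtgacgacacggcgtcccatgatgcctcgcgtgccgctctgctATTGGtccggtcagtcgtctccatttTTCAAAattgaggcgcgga
Ckap2l: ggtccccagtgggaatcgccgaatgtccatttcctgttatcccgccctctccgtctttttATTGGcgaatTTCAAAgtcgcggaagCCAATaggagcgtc
Hmgb2: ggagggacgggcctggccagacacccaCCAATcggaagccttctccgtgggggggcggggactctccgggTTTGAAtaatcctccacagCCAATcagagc
Ckap5: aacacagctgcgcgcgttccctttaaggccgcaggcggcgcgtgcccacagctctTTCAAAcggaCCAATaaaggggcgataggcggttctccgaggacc

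In windows from 250 bases before to 50 after the start, TTTGAA on either strand was present in 43 of the 70 mitosis genes that matched the RefSeq table (61.4%), against 20.2% of the 27025 genes of the table and 14.1% of the 7073 of the genes tested below that matched it. It was present in 18.2% of 33 S phase genes, 13.5% of 37 sarcomere genes and 5.66% of 53 cytosolic ribosomal protein genes. CCAAT on either strand was present in 71.4% of mitosis genes and 72.7% of S phase genes, against 41.1% of all genes and 43.2% of sarcomere genes. In the 4 windows shown, the CHR letters nearest the start lay at positions -19 to -14 in Kif11, -30 to -25 in Ckap2l, -30 to -25 in Hmgb2 and -45 to -40 in Ckap5. Only windows with these letters could be shown, so their presence there was fixed by the choice. Windows of Ccnf, Ncapg and Tmpo, which also hold the CHR letters, have no CCAAT on either strand and are not shown. A match is a description of the letters and not evidence of binding.

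The label of mitotic-phase cells was checked against the RNA. The gate genes chose the cells, so their levels are descriptions: mean CPM in gated and comparison cells was 509 and 55.7 for Top2a (topoisomerase II), 160 and 19 for Mki67 (the proliferation antigen Ki-67), 304 and 32.3 for Ccnb1 (cyclin B1), 81.2 and 7.39 for Cdc20 (an activator of the anaphase-promoting complex) and 297 and 19.98 for Cenpf (a kinetochore protein). Mean Tnnt2, also part of the gate, was 5384 and 6723 CPM. The gate did not isolate mitosis. Most Tnnt2-high cells passed it, and the summed level of 45 S phase genes had a median of 3673 CPM in gated and 2146 CPM in comparison cells, beside 14218 and 5707 CPM for the 84 mitosis genes in the files. The gate therefore holds cells with RNA of S, G2 and M phase, and "mitotic-phase" is used for no finding here.

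At the edge of the gate the groups were close. Cells with 3 gate genes, just inside, had a mean Top2a of 253 CPM, Mki67 of 79.6, Ccnb1 of 172, Cdc20 of 36 and Cenpf of 159. Cells with 2, just outside, had 180, 44.3, 120, 17.8 and 123 CPM of the same genes. Among the Tnnt2-high cells, 99, 119, 138, 126, 173 and 161 cells had 0, 1, 2, 3, 4 and 5 gate genes at 50 CPM, so no gap in the number of gate genes separated the populations.

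The summed mitosis level separated the libraries, and the S phase level followed another course. Across the 11 libraries the median cell had 11714 to 16064 CPM of the mitosis list when gated and 4577 to 6808 CPM when a comparison cell, with no overlap. The S phase list had 2810 to 4662 CPM and 1756 to 3316 CPM, with overlap. From 0 to 5 gate genes the median mitosis level went from 5407 through 6254, 7944, 9947 and 13892 to 18498 CPM, higher at each step. The S phase level was 1873, 2560, 4052, 4707, 4001 and 3143 CPM, highest in cells with 3 gate genes, so the cells at the top of the gate held most mitosis RNA and less S phase RNA than those in its middle.

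**Figure D1:**
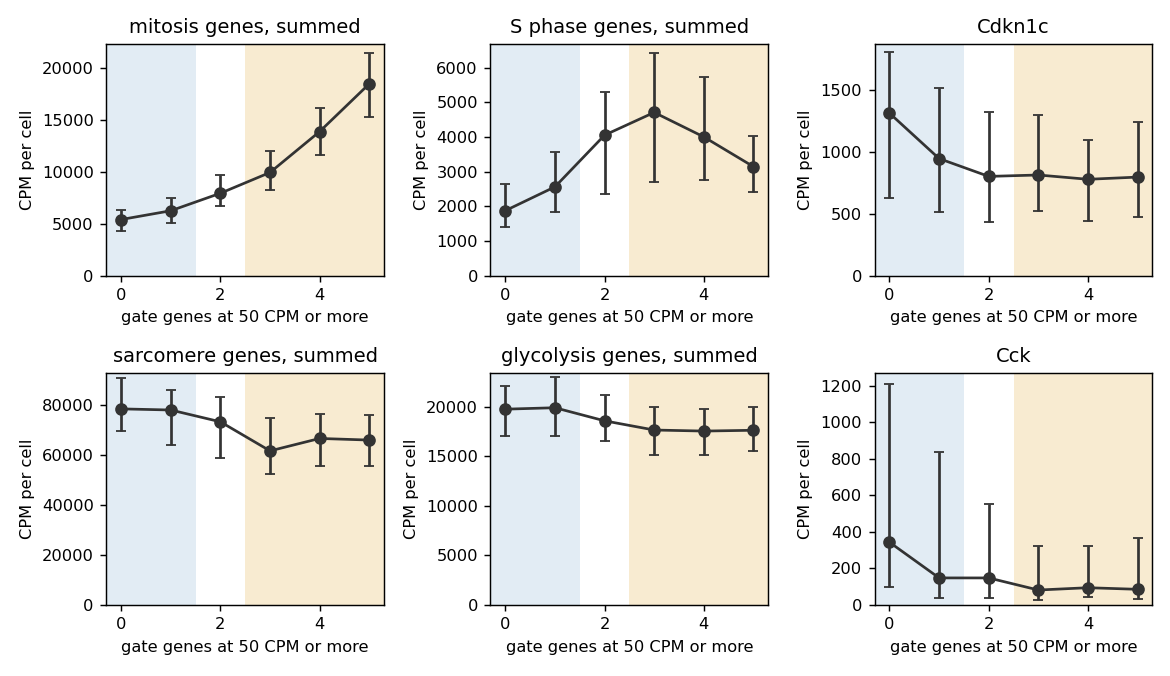
Median CPM per cell (points, with bars from the lower to the upper quartile) of summed gene lists and of Cdkn1c and Cck, against the number of gate genes at 50 CPM or more (0 to 5), over all Tnnt2-high cells of E8.25 to E9.25. The mitosis list rises from 5407 to 18498 CPM, the S phase list peaks at 4707 CPM with 3 gate genes, and Cdkn1c and Cck are highest in cells with 0 gate genes.

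Other genes followed the number of gate genes in different ways. Median Cck fell from 343 CPM in cells with 0 gate genes to 147 CPM with 1 and 84.9 CPM with 5, and median Cdkn1c was 1310, 944, 800, 811, 777 and 794 CPM, with its largest step between 0 and 1. Median Ccnd2, cyclin D2, was 78.0, 147, 171, 197, 175 and 159 CPM and so was highest in cells with 3 gate genes, as S phase RNA was. The summed sarcomere level was 78625, 78172, 73432, 61768, 66756 and 66107 CPM, with its lowest value also at 3 gate genes. Median counts per cell were 105920, 97414, 97907, 103620, 115680 and 137630, so depth moved with the number of gate genes from 1 onward; its part in these values was not tested. These medians over cells pool libraries and carry no test.

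Between 37.6% and 77.0% of the Tnnt2-high cells of a library passed the gate. For Nkx2-5Cre the 2 libraries had 58.5% and 64% at E8.25 (48 cells each), 37.6% and 50.6% at E8.75 (32 and 43 cells) and 46.8% and 52.0% at E9.25 (37 and 39 cells). For Isl1Cre they had 77.0% and 70.7% at E8.25 (47 and 41 cells) and 50% and 42.5% at E8.75 (27 and 31 cells), and the single E9.25 library had 75.3% (67 cells; exact 95% binomial interval 65.0% to 83.8%, which covers counting error only). The lowest library of each lineage was thus at E8.75. In Nkx2-5Cre, however, E8.75 replicate 2 (50.6%) lay above E9.25 replicate 1 (46.8%). The shares of the Isl1Cre E8.25 and E9.25 libraries lay above every Nkx2-5Cre library.

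As group means the share was 61.3% ± 3.86, 44.1% ± 9.15 and 49.4% ± 3.65 in Nkx2-5Cre and 73.9% ± 4.50, 46.2% ± 5.33 and 75.3% in Isl1Cre (SD, n = 2 libraries, 1 for the last). Averaged over stages it was 13.5 percentage points higher in Isl1Cre, which did not pass a two-sided exact permutation test over embryos (p = 0.25, the smallest p that its 8 arrangements allow). With the 11 libraries as units the same difference had an exact permutation p of 0.037, but libraries of a group probably share an embryo. The slope with stage was -5.22 points per day (exact permutation p = 0.889, smallest possible 0.0556). Without the Isl1Cre E9.25 library the lineage difference was 7.36 points and the slope was -20.5 points per day (exact permutation p = 0.5 and 0.333). With every cell thinned to 20000 counts, where 1 count equals 50 CPM, the shares were 65.7%, 54.0% and 63.0% in Nkx2-5Cre and 88.7%, 56.9% and 79.0% in Isl1Cre, again lowest at E8.75 in both. Between 6 and 20 shallower Tnnt2-high cells per group were left out of these.

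**Figure D2:**
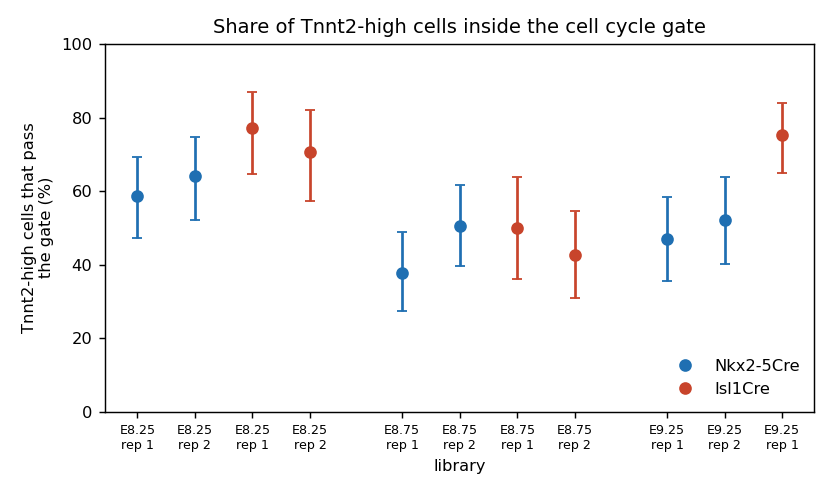
Percent of Tnnt2-high cells that passed the gate in each library (points), against embryonic day, for Nkx2-5Cre and Isl1Cre. Values run from 37.6% to 77.0%. The lowest library of each lineage is at E8.75, and in Nkx2-5Cre the E8.75 and E9.25 libraries overlap.

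Nppa, the natriuretic peptide gene that marks working chamber muscle, was compared with the gate, which does not use it. With Nppa-high defined as at least 1000 CPM, 20 of 28 Nppa-high against 76 of 129 other Tnnt2-high cells passed in Nkx2-5Cre E8.25, 10 of 19 against 65 of 151 at E8.75 and 30 of 52 against 46 of 102 at E9.25. In Isl1Cre 13 of 19 against 45 of 108 passed at E8.75 and 28 of 37 against 39 of 52 at E9.25. The share was higher in Nppa-high cells in all 5 embryos with enough cells, by a mean of 12.4 points and by 0.676 to 26.8 points in single embryos. The two-sided exact permutation p was 0.0625, the smallest that 5 embryos allow, so the difference could not pass. With Nppa-high set at 500 CPM, 6 embryos could be used and the smallest possible p was 0.0312. The difference was then 8.33 points and did not pass (exact permutation p = 0.156). With thinned cells it was 7.15 points (exact permutation p = 0.125), and with Nppa-high set at 2000 CPM it was 4.14 points (exact permutation p = 0.625).

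Gated cells tended to carry more counts. The median counts per cell ran from 78824 to 239620 in the gated cells of the 11 libraries, and in 8 libraries they were above those of the comparison cells of the same library. Nkx2-5Cre E8.75 replicates 1 and 2 and Isl1Cre E8.75 replicate 1 went the other way. The mean log2 ratio over embryos was 0.53 (exact permutation p = 0.0938, smallest possible 0.0312). It includes Isl1Cre E8.25, with medians of 82047 against 33355 and 117300 against 32316 counts and only 3 comparison cells per library. Among cells with at least 20000 counts the mean ratio was 0.22 (exact permutation p = 0.156). With comparison cells of 0 gate genes it was 0.22 over 5 embryos (exact permutation p = 0.5). Depth thus tended to be higher in gated cells but did not pass over embryos. Its part in the results below was not tested beyond the thinned values given beside them.

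Expression was compared between gated and comparison cells of the same embryo, on log2(mean CPM + 1), with limma and Benjamini-Hochberg adjustment over all genes tested. Isl1Cre E8.25 had 3 comparison cells in each library and was left out, which leaves 5 embryos and 9 libraries. Of 9147 genes, 491 passed at an adjusted p of 0.05 (5.37%): 292 were higher in gated cells (3.19%) and 199 lower (2.18%). The higher calls include 73 genes of the mitosis list, and the gate genes and Tnnt2 were among the genes tested. The count of higher genes, and the 3.19% set beside lists below, are therefore partly given by the gate. The median difference over all genes was 0.01. Without TMM scaling, which equalises the bulk of genes between profiles, 368 genes were higher and 131 lower, the share of higher calls was 73.8% in place of 59.5%, and the median of all genes was 0.06. With cells thinned to 20000 counts, and so gated on thinned values, 204 genes passed, 158 higher and 46 lower, and the median of all genes was 0.12.

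Mitosis genes, which belong to the same programme as the gate genes, were higher throughout, and their values are descriptions that follow from the gate. All 80 tested members had a positive difference, with a median of 2.13 on the log2 scale and 73 past the threshold. Hmmr, a spindle and hyaluronan-binding protein gene, had 94.8 to 181 CPM in gated cells of the 9 libraries (median 163) and 1.95 to 17.8 CPM in comparison cells (median 7.05), a difference of 3.99. Cdk1, the kinase that starts mitosis, had 269 to 383 CPM (median 321) against 16.1 to 78.0 CPM (median 56.0), a difference of 2.54 ± 0.13 (SE). The libraries did not overlap for either gene.

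Among those with a printed promoter, Kif11 differed by 3.34 ± 0.23 (mean 85.3 against 7.59 CPM over embryos), Ckap2l by 2.77 (60.7 against 9.52 CPM), Hmgb2 by 1.76 (2160 against 609 CPM) and Ckap5 by 1.06 (110 against 51.4 CPM). Ube2c, a ubiquitin-conjugating enzyme of the anaphase-promoting complex, stood at 769 against 158 CPM, and the spindle midzone gene Prc1 at 124 against 15.4 CPM. At the low end, Tubb5, a beta-tubulin gene that cells use outside mitosis too, differed by 0.31 (1942 against 1510 CPM). The members therefore ranged from 0.18 to 3.99. By embryo the list median was 2.25, 1.90 and 1.99 in Nkx2-5Cre from E8.25 to E9.25, 1.64 in Isl1Cre E8.75 and 1.8 in Isl1Cre E9.25.

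DNA replication genes rose in part. The gate holds cells with S phase RNA too, so a rise of these and of the replication histone genes is partly given by the choice of cells. Their p-values are no independent evidence of division. Of 45 S phase genes 17 rose and 0 fell, with a median of 0.61, beside 3.19% of all genes called higher. Rrm2, the ribonucleotide reductase subunit that supplies deoxynucleotides, had 229 to 310 CPM in gated cells (median 264) and 29.6 to 91.2 CPM in comparison cells (median 65.3), with no overlap, a rise of 2.01 ± 0.13 (limma adjusted p = 3.6e-08). Tyms, thymidylate synthase, had 92.8 to 199.5 CPM (median 146) against 44.8 to 113 CPM (median 62.0) and rose by 0.93 ± 0.14 (adjusted p = 0.000476). Pcna, the clamp that holds DNA polymerase, had 323 to 583 CPM against 189 to 361 CPM and rose by 0.58 ± 0.10 (adjusted p = 0.000992). All 9 libraries were higher in gated cells for each of these genes.

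Members that act in the control of replication were among those that rose. Clspn, a replication checkpoint mediator, rose by 1.68 ± 0.22 (adjusted p = 0.000104). Gmnn, geminin, which keeps origins from firing again, rose by 0.87 ± 0.13 (adjusted p = 0.000286). Of the MCM helicase, which is loaded before S phase, Mcm7 passed narrowly (0.49 ± 0.13, adjusted p = 0.0408; lost in most alternatives tried), while Mcm2, Mcm3, Mcm4 and Mcm6 had differences of -0.02, 0.00, -0.01 and -0.04 and did not pass. With gate genes at 100 CPM 11 of the 45 genes rose and 2 fell, with a median of 0.27, and with no replicate block or with no filter on low values 9 rose. With thinned cells 7 of the 45 genes rose; Clspn was no longer called, and Rrm2 differed by 1.87 (adjusted p = 3.78e-05).

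Of 9 tested genes on the replication histone list 4 rose, with a median of 0.66, beside 3.19% of all genes called higher. The 4 include H2afz, a variant rather than a replication histone gene. Hist1h2ae differed by 1.82 ± 0.19 (85.9 against 23.8 CPM, adjusted p = 6.37e-06), and the linker histone gene Hist1h1b by 3.16 ± 0.50 (19.9 against 2.78 CPM, adjusted p = 0.000638), and it was at 0 in comparison cells of 2 libraries. Hist1h1e (0.95 ± 0.22, adjusted p = 0.016) and the variant H2afz (0.66, 2538 against 1544 CPM) were the others. Apart from H2afz, most of these transcripts lack a poly(A) tail and the gene copies are nearly identical, so oligo(dT) capture and the assignment of reads make their levels uncertain.

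Among 20 tested cyclins, CDKs and CDK inhibitors, 1 rose and 1 fell, beside 3.19% of all genes called higher and 2.18% called lower. In a list of 20 genes, 1 call each way is near those shares. Ccnd2, cyclin D2, which drives entry into the cycle, had 138 to 676 CPM in gated cells (median 322) and 90.2 to 366 CPM in comparison cells (median 218). It was higher in 8 of 9 libraries and rose by 0.51 ± 0.10 (adjusted p = 0.00583). The call was lost without Nkx2-5Cre E8.25 replicate 1 (adjusted p = 0.0922) or without Isl1Cre E8.75 replicate 1 (adjusted p = 0.141). Ccnd1 and Cdk4 stood at -0.17 and 0.09, and neither passed.

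Cdkn1c, which encodes the CDK inhibitor p57, was lower in the gated cells of all 9 libraries. It had 579 to 1396 CPM (median 974) against 781 to 1820 CPM (median 1260) and fell by 0.45 ± 0.06 on the log2 scale (adjusted p = 4.55e-05). With cells thinned to 20000 counts the difference was -0.10 (adjusted p = 0.808), and with comparison cells of 0 gate genes it was -0.61 (adjusted p = 0.000564). The inhibitor genes Cdkn1a (p21) and Cdkn1b (p27) were near 10 CPM and did not pass, at -0.08 and 0.41.

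Sarcomere genes were slightly lower. Of 39 tested genes 19 fell and 0 rose, with a median of -0.24, beside 2.18% of all genes called lower. Actc1, cardiac actin, had 5043 to 9114 CPM in gated cells (median 5805) and 5889 to 10220 CPM in comparison cells (median 6825). The groups overlap across embryos, but Actc1 was lower in gated cells of all 9 libraries and fell by 0.29 ± 0.04 (adjusted p = 0.00017).

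Myh7, the slow myosin heavy chain that marks ventricular muscle at this age, had 619, 918, 907, 820, 1379 and 1402 CPM in the gated cells of the Nkx2-5Cre libraries, in order of stage and replicate. Comparison cells of the same libraries had 850, 1369, 1038, 724, 1844 and 1515 CPM. In Isl1Cre E8.75 and E9.25 it had 760, 663 and 1726 CPM when gated, against 1344, 1255 and 2989 CPM. Only Nkx2-5Cre E8.75 replicate 2 went the other way, and Myh7 fell by 0.56 ± 0.10 (adjusted p = 0.00202). It stayed called with thinned cells (-0.39, adjusted p = 0.0133) and with comparison cells of 0 gate genes (-0.54, adjusted p = 0.0071).

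Other sarcomere members fell too. Tnnt1, the slow skeletal troponin T, fell by 0.74 ± 0.14 (161 against 272 CPM, adjusted p = 0.00285), and without Isl1Cre E8.75 replicate 2 it no longer passed (adjusted p = 0.129). Ankrd1, a stretch-responsive protein of the titin filament, fell by 0.52 ± 0.11 (1854 against 2559 CPM, adjusted p = 0.00807). The light chains Myl7 (-0.28, adjusted p = 0.000353), Myl4 (-0.27, adjusted p = 3.8e-05) and Myl2 (-0.23, adjusted p = 0.0111) and the giant spring protein gene Ttn (-0.24 ± 0.05, adjusted p = 0.00617) fell by similar amounts. Myh6, the fast myosin heavy chain, had a difference of -0.02 (adjusted p = 0.947). Without Nkx2-5Cre E9.25 replicate 1 Ttn did not pass (adjusted p = 0.0814). With thinned cells 12 of the 39 genes fell, with comparison cells of 0 gate genes 6 did, with no filter on low values 1 of 43 did, and with no replicate block for the embryo 0 did.

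Of 16 tested calcium handling and channel genes 4 fell and 0 rose, beside 2.18% of all genes called lower. All 16 had negative differences, with a median of -0.34. Cacna1d, an L-type calcium channel of pacemaker and atrial cells, fell by 1.03 ± 0.22 (23.4 against 48.2 CPM, adjusted p = 0.00932). Ryr2, the calcium release channel of the sarcoplasmic reticulum, had 141 to 302 CPM against 182 to 446 CPM and fell by 0.44 ± 0.10 (adjusted p = 0.0103). Hrc, a calcium-binding protein of that store, fell by 0.43 ± 0.09 (adjusted p = 0.00723), and the sodium-calcium exchanger Slc8a1 by 0.34 ± 0.07 (adjusted p = 0.00738), a call lost without Isl1Cre E8.75 replicate 1 (-0.25, adjusted p = 0.147). The pump gene Atp2a2 (-0.12) and its inhibitor Pln (-0.27) did not pass. With thinned cells or with no replicate block for the embryo 0 of the 16 passed, and with comparison cells of 0 gate genes or no filter on low values 1 did.

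Of 21 tested genes on the glycolysis list 8 fell and 0 rose, with a median of -0.21, beside 2.18% of all genes called lower. The 8 include Bnip3, which encodes no glycolytic enzyme. Eno3, muscle enolase, had 439 to 678 CPM in gated cells (median 554.5) and 487 to 823 CPM in comparison cells (median 731), was lower in all 9 libraries and fell by 0.42 ± 0.08 (adjusted p = 0.00305). Ldha, lactate dehydrogenase A, had 3319 to 3929 CPM (median 3524) against 3422 to 4401 CPM (median 3963) and fell by 0.19 (adjusted p = 0.00275), also in all 9 libraries. Pkm, pyruvate kinase, fell by 0.24 (adjusted p = 0.00348) and the hypoxia target Bnip3 by 0.41 ± 0.07 (adjusted p = 0.00211). These shifts are small in size, and with thinned cells 1 of the 21 genes fell; Eno3 and Ldha then stood at -0.29 and -0.19 (adjusted p = 0.111 and 0.129). With no filter on low values 1 of 22 fell, and with no replicate block for the embryo 0 of 21 did.

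Mitochondrial genes moved less as a list. Of 59 oxidative phosphorylation genes 3 fell and 0 rose, with a median of -0.09, beside 2.18% of all genes called lower. Cox7a1, the heart and muscle form of a cytochrome oxidase subunit, fell by 0.58 ± 0.11 (292 against 420 CPM, adjusted p = 0.0029), and Cox6a2, another muscle form, by 0.38 (adjusted p = 0.00538; 0.0611 without Nkx2-5Cre E9.25 replicate 2). Atp5e fell by 0.29 (adjusted p = 0.0247), a call lost without Nkx2-5Cre E8.75 replicate 2, Isl1Cre E8.75 replicate 1 or Isl1Cre E9.25 (adjusted p = 0.0512 to 0.0604). With no replicate block 0 of the 59 fell. Of 68 cytosolic ribosomal protein genes 1, Rpl10, fell (-0.15, adjusted p = 0.0475), and the median was -0.03. This count lies below the 2.18% of all genes called lower. The call of Rpl10 was lost without any 1 of 6 libraries (adjusted p = 0.0772 to 0.122).

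**Figure D3:**
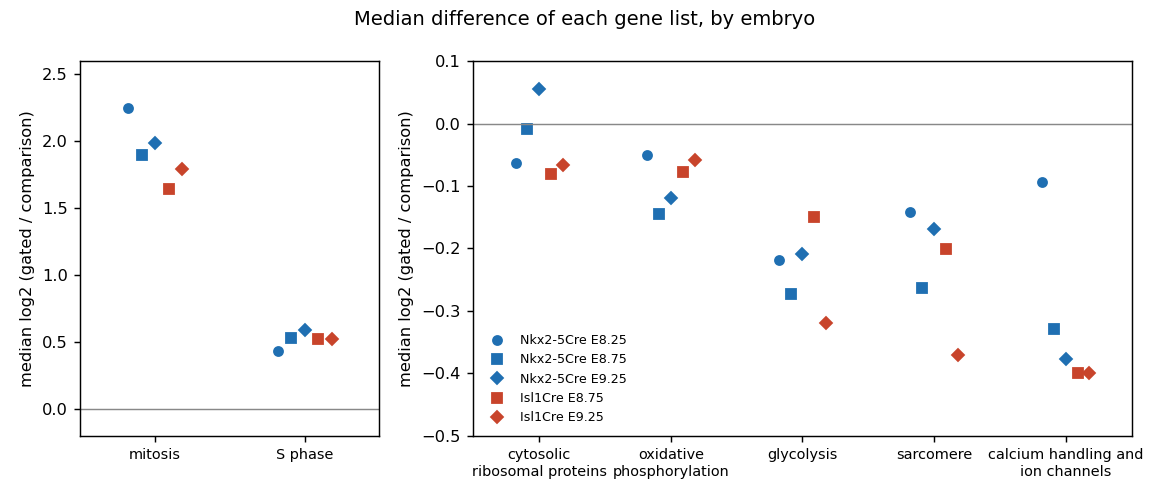
Median log2 difference between gated and comparison cells for 7 gene lists, by embryo (points). The mitosis list lies between 1.64 and 2.25 and the S phase list between 0.43 and 0.59, whereas the sarcomere list lies between -0.37 and -0.14 and the glycolysis list between -0.32 and -0.15.

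The sarcomere and S phase medians each had 1 sign in all 5 embryos. The sarcomere median was -0.14, -0.26 and -0.17 in Nkx2-5Cre from E8.25 to E9.25, -0.20 in Isl1Cre E8.75 and -0.37 in Isl1Cre E9.25. The S phase median was 0.43, 0.53, 0.59, 0.53 and 0.52 in the same order. The S phase values therefore varied little between embryos, and the sarcomere value was most negative in Isl1Cre E9.25.

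Genes that mark regions of the heart moved singly. Of 13 chamber genes 2 fell and 1 rose, with a median of -0.13, beside 2.18% of all genes called lower and 3.19% called higher. Nppa itself had 286 to 1382 CPM in gated and 334 to 1469 CPM in comparison cells, a difference of 0.04 (adjusted p = 0.926). Cck, cholecystokinin, a peptide hormone gene, was the chamber gene that fell most. It lies on chromosome 9 (121489824 to 121495694, minus strand, mm10). In gated cells it had 391, 356, 542, 308, 305 and 312 CPM in the Nkx2-5Cre libraries and 373, 559 and 397 CPM in the 3 Isl1Cre libraries.

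In comparison cells Cck had 615, 347, 718, 1065, 606 and 1293 CPM in Nkx2-5Cre and 727, 1022 and 671 CPM in Isl1Cre. Gated cells were lower in 8 of 9 libraries, all but Nkx2-5Cre E8.25 replicate 2, and Cck fell by 1.00 ± 0.12 (adjusted p = 3.23e-05). It passed under every alternative tried, among them thinned cells (-1.19, adjusted p = 0.000806) and comparison cells of 0 gate genes (-1.14, adjusted p = 0.00495). Lbh, a transcription cofactor gene of limb and heart, was the other that fell (0.60 ± 0.10 lower on the log2 scale, adjusted p = 0.00158) and was lower in all 9 libraries.

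**Figure D4:**
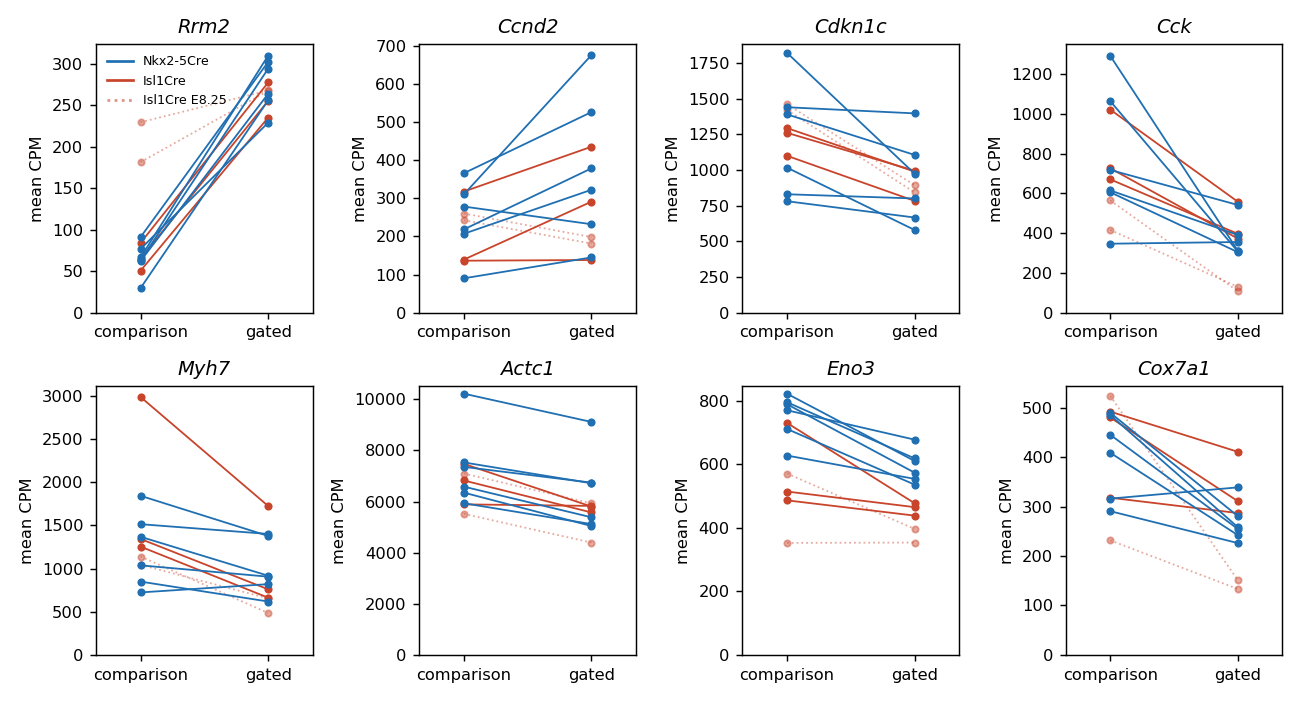
Mean CPM in the comparison and gated cells of each library (points joined by a line) for Rrm2, Ccnd2, Cdkn1c, Cck, Myh7, Actc1, Eno3 and Cox7a1, with dotted lines for the Isl1Cre E8.25 libraries that have 3 comparison cells each. Solid lines go up in 9 of 9 libraries for Rrm2 and down in 9 of 9 for Cdkn1c, Actc1 and Eno3.

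Cited1, a transcriptional cofactor gene, was the chamber gene that rose. It had 64.6 to 200 CPM in gated cells (median 93.7) and 23.6 to 150 CPM in comparison cells (median 41.5), higher in 8 of 9 libraries, and rose by 1.07 ± 0.20 (adjusted p = 0.00357). With thinned cells it stood at 0.95 and did not pass (adjusted p = 0.25).

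Of 15 outflow tract genes 2 fell and 0 rose, with a median of -0.35, beside 2.18% of all genes called lower. Cxcl12, a chemokine gene, had a difference of -1.01 (adjusted p = 0.033), with 7 of 9 libraries lower. By embryo Cxcl12 stood at 0.71 in Nkx2-5Cre E8.25 and at -1.69 to -1.08 in the other 4, and the call was lost with thinned cells (-0.88, adjusted p = 0.19) and without any 1 of 4 libraries (Nkx2-5Cre E8.25 replicate 2, Nkx2-5Cre E8.75 replicate 1 and both of Isl1Cre E8.75; adjusted p up to 0.112). Fgf8, a growth factor of the second heart field, had -0.89 (adjusted p = 0.0469), and with comparison cells of 0 gate genes it changed sign to 0.21 (adjusted p = 0.912). Its call was also lost without any 1 of 5 libraries (adjusted p = 0.0843 to 0.246). Of 9 atrial and inflow genes 1 fell, Myl4, given above, and of 15 intercalated disc genes 0 passed, and Nkx2-5 stood at -0.14 (adjusted p = 0.5). Of 30 growth signal and regulator genes 1 fell, near the 2.18% of all genes called lower. It was Jarid2, a chromatin regulator that represses cyclin D1 in the heart, at -0.48 (adjusted p = 0.0487), lost in most alternatives tried.

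Outside the lists, the largest falls among called genes of at least moderate level (an average log2 level of 5 or more) were mostly in genes of low abundance. Airn, the noncoding RNA antisense to Igf2r (chromosome 17, 12741311 to 12860136, plus strand), fell by 1.11 ± 0.19 (12.0 to 44.4 CPM against 35.4 to 114 CPM, adjusted p = 0.00143). Whether counting used the strand is not stated, so Airn and the overlapping Igf2r cannot be told apart where they overlap, and with thinned cells Airn stood at -0.57 (adjusted p = 0.56). Adra2b, an adrenergic receptor gene (-0.99, adjusted p = 0.0113), Ndrg2, a stress and differentiation gene (-0.93, adjusted p = 0.000353), and Rab4a, a GTPase of recycling endosomes (-0.90, adjusted p = 0.00601), were others. With thinned cells Adra2b, Ndrg2 and Rab4a stood at -0.56, -0.61 and -0.41 (adjusted p = 0.522, 0.139 and 0.413), and Adra2b also lost its call without Nkx2-5Cre E8.25 replicate 2 (adjusted p = 0.0516) or Nkx2-5Cre E8.75 replicate 1 (adjusted p = 0.0583). Ndrg2 had 46.0 to 111 CPM in gated and 97.3 to 232 CPM in comparison cells and was lower in all 9 libraries. Arl4a, Atxn1, Ociad2, Ikbip and Smim14 fell by 0.92 to 0.99. With thinned cells Atxn1, Ociad2, Ikbip and Smim14 did not pass, at -0.32, -0.003, -0.77 and -0.66 (adjusted p = 0.692, 0.999, 0.213 and 0.222), and Atxn1 also lost its call without Nkx2-5Cre E8.25 replicate 1 (adjusted p = 0.0745). Arl4a lost its call without any 1 of 6 libraries (adjusted p = 0.0502 to 0.0881) and stood at -0.57 without Isl1Cre E9.25.

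RNA of other cell types was low in both sets of cells in most libraries, with blood RNA the exception. Summed CPM of 8 endothelial markers had a median of 131 (92.6 to 175) over the 9 libraries in gated and 130 (64.4 to 399) in comparison cells, 3 of them could be tested and 0 passed. Blood markers had a median of 1.29 (0 to 2306) and 1.79 (0 to 455) CPM, with Hba-a1 and Hba-a2 at 0 in every library; the highest sum, 2306 CPM, was in gated cells and came with 1046 CPM of Hbb-bh1 in Nkx2-5Cre E8.75 replicate 2. Endoderm markers had medians of 32.2 and 17.1 CPM and mesenchyme and proepicardium markers 32.0 and 43.0 CPM, and neural markers were at or near 0. Summed cardiomyocyte markers, which include the gate gene Tnnt2, were 35630 to 41510 CPM in gated and 39020 to 52040 CPM in comparison cells. With Tnnt2 left out, 6 of 8 tested markers fell (Myl7, Actc1, Tnni1, Myl4, Myh7 and Ttn), beside 2.18% of all genes called lower. Of 20 DNA damage and p53 genes 2 rose, among them the histone variant gene H2afx (1.08 ± 0.12), beside 3.19% of all genes called higher. Of 15 immediate early and heat shock genes 0 passed.

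Within the gated cells, few genes passed for a change with stage. The change per day was fitted with limma over 6 embryos, with lineage as a term. Comparison cells were not fitted alone for stage or lineage, so a change given below is not shown to be particular to gated cells. Of 9113 genes 26 passed (0.285%), 15 rising (0.165%) and 11 falling (0.121%). Of 81 mitosis genes and 45 S phase genes 0 passed, with medians of 0.15 and -0.07 log2 per day. On simulated data, with a set spread not taken from these data, this fit found 20% of changes of 1 log2 unit and 100% of those of 2. Smaller trends could thus be missed.

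Some sarcomere and chamber genes were among those that rose. Myl2, the ventricular light chain, had embryo means of 2704, 3118 and 5400 CPM in Nkx2-5Cre and 1262, 3323 and 7078 CPM in Isl1Cre gated cells from E8.25 to E9.25, higher at each stage, and rose by 1.78 ± 0.26 log2 per day (adjusted p = 0.0162). Nppa had 610, 404 and 1350 CPM and 113, 582 and 1172 CPM (2.29 ± 0.44 per day, adjusted p = 0.046). It was lowest at E8.75 in Nkx2-5Cre and at E8.25 in Isl1Cre, and highest at E9.25 in both. Myh7 rose by 1.27 ± 0.22 per day (adjusted p = 0.0402) and Csrp3, a Z-disc stretch sensor, by 1.03.

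In all, 4 of 39 sarcomere genes (Lmod2, Myl2, Myh7 and Csrp3) and 1 of 16 calcium genes rose, beside 0.165% of all genes. The calcium gene was Pln, phospholamban, which rose from 15.4 and 17.1 to 52.2 CPM in Nkx2-5Cre and from 3.96 and 8.48 to 70.1 CPM in Isl1Cre (2.81 ± 0.51 per day, adjusted p = 0.0402). Tnc, the matrix protein tenascin C, went from 5.10 through 19.2 to 72.9 CPM and from 1.46 through 15.1 to 38.0 CPM (3.83 ± 0.39 per day, adjusted p = 0.000881). In comparison cells Tnc had 23.1, 16.8 and 116 CPM in Nkx2-5Cre and 0, 19.8 and 56.0 CPM in Isl1Cre. It was highest at E9.25 there too, though Isl1Cre E8.25 had only 3 comparison cells per library. Falling genes included Ifitm1, a membrane protein gene of early mesoderm, from 16.1 through 6.42 to 0.623 CPM and from 86.8 through 5.15 to 0.857 CPM (-4.46 ± 0.61 per day, adjusted p = 0.00972). Fgf8 fell from 42.0 through 26.0 to 12.9 CPM and from 45.8 through 39.6 to 9.92 CPM (-1.83 ± 0.35 per day, adjusted p = 0.0416), and Car4 by 1.64 per day (adjusted p = 0.00972). Pln, Tnc, Ifitm1 and Fgf8 lie below the average level required for naming and were chosen after their values were seen.

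**Figure D5:**
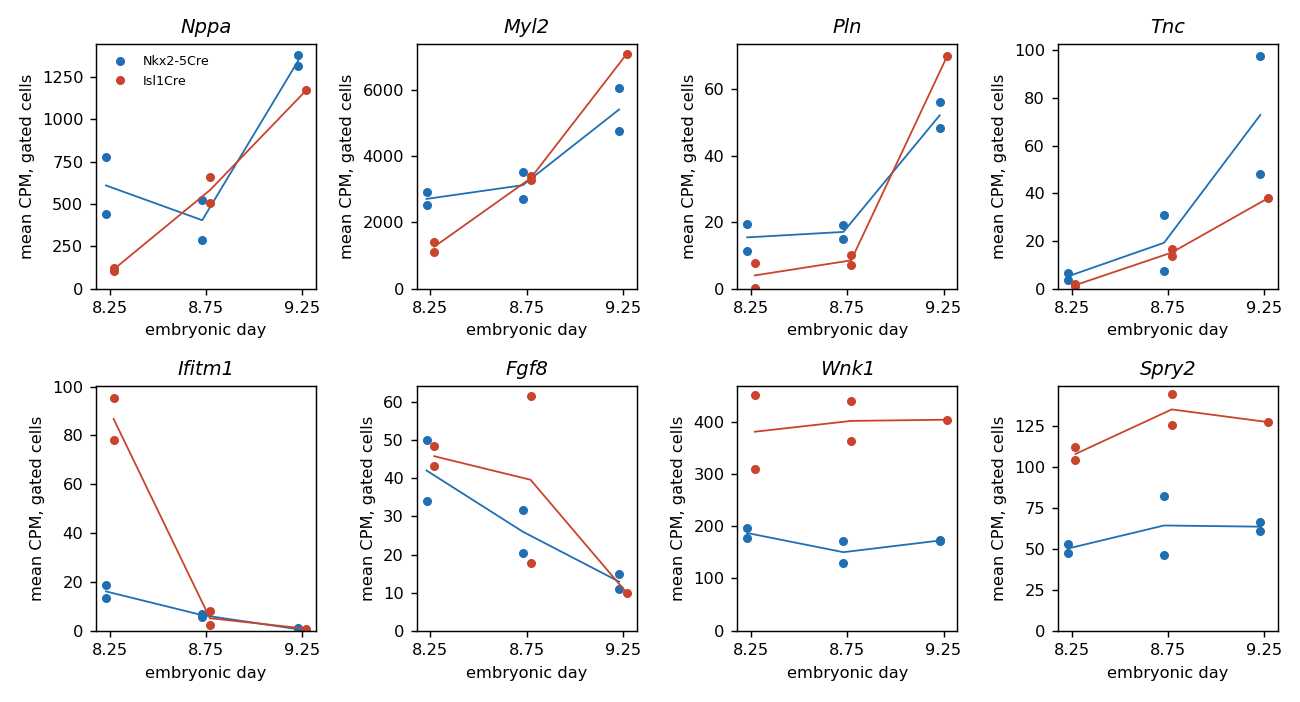
Mean CPM in gated cells of each library (points, with lines through the means) against embryonic day, by lineage, for 6 genes called with stage and for Wnk1 and Spry2, called between lineages. Myl2 rises to 5400 and 7078 CPM and Tnc to 72.9 and 38.0 CPM, while Ifitm1 falls below 1 CPM in both lineages.

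The stage calls rest on single libraries in part. Leaving out 1 library at a time left 1 to 40 called genes: 1 without Isl1Cre E8.75 replicate 1, 4 without Isl1Cre E8.75 replicate 2 or Isl1Cre E9.25, 7 and 9 without Isl1Cre E8.25 replicate 1 or 2, and 9 without Nkx2-5Cre E8.75 replicate 1. Nothing was lost for Tnc in any of these, whereas Myl2 and Ifitm1 each lost their call without 2 of the libraries, Myh7 without 6, Pln without 7 and Nppa and Fgf8 without 8.

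Between lineages, 10 of 9113 genes passed in gated cells (0.11%), 9 higher in Isl1Cre (0.0988%) and 1 lower (0.011%). Of the mitosis and S phase lists 0 passed, with medians of -0.07 and -0.11. Wnk1, a kinase that regulates ion transport, had embryo means of 187, 150 and 173 CPM in Nkx2-5Cre and 381, 401 and 404 CPM in Isl1Cre, without overlap (1.21 ± 0.15, limma adjusted p = 0.00684). Over the 9 libraries of the paired fit, Wnk1 ran from 87.0 to 428 CPM in comparison cells, beside 129 to 439 CPM in gated cells. Spry2, a feedback inhibitor of FGF signalling, had 50.2, 64.3 and 63.6 CPM and 108, 135 and 127 CPM (1.04 ± 0.18, adjusted p = 0.0387). Vangl2, a planar cell polarity gene named after its values were seen, had 5.14, 7.02 and 4.11 CPM and 49.0, 32.6 and 18.1 CPM (2.33 ± 0.34, adjusted p = 0.0129). Without the Isl1Cre E9.25 library 0 genes passed, and Wnk1 and Vangl2 both had an adjusted p of 0.0572.

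The difference between gated and comparison cells was itself compared between stages and lineages. For stage, 0 of 9147 genes passed with limma, with 350 at an unadjusted p under 0.05, 0 by edgeR and 5 by DESeq2. For lineage, 1 gene passed (0.0109%), Gins1, a subunit of the replicative helicase, whose difference was lower by 3.31 in Isl1Cre (adjusted p = 0.013). Gins1 had 300 and 162 CPM in comparison cells of Isl1Cre E8.75 replicate 1 and Isl1Cre E9.25, and 10.2 to 30.3 CPM in those of Nkx2-5Cre, and without the first of these libraries the value was -1.01 (adjusted p = 0.802). On simulated data, with a set spread not taken from these data, these fits found 6% and 19% of differences of 1 log2 unit.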

How the data were processed

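Single heart cells were profiled with a modified Smart-seq2 method (oligo(dT) priming, barcodes with molecular identifiers, 3' capture), per the labels' protocols. CASAVA 1.8, TopHat2 2.0.12, HTSeq and mm10 are named in the submitters' processing notes; the counting settings were not given in the sources. The deposited values are CPM per cell and gene, scaled by the authors to each cell's total, for 23154 genes. All low values (up to 20 steps, tolerance 0.1 step) were whole multiples of the value of 1 count (100%), so counts per cell were recovered. Whether they are reads or molecules is not stated.

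Cells were gated as the report states. Doublets were not removed: cells were picked singly and no doublet caller was run. Mean CPM of the gated and of the comparison cells was taken per library (at least 5 cells in each set) and averaged per embryo, as libraries of a group carry 1 embryo number in their titles; p-values thus measure the spread between 5 or 6 embryos of different stage and lineage. Embryo, or stage and lineage, entered limma 3.58.1 (trended, R 4.3.3; TMM factors 0.936 to 1.041 for paired profiles) on log2(mean CPM + 1) for genes with a mean of 5 CPM or more; adjusted p-values are Benjamini-Hochberg values over all genes tested, threshold 0.05, and errors are SE. A log2 difference on this scale understates changes of low genes. The condition on comparison cells was not applied to the stage and lineage fits in gated cells, which use 6 embryos. Count tests on recovered counts (edgeR 4.0.16, DESeq2 1.42.0), thinning, other gates and left-out libraries were alternatives. A paired limma fit on simulated data found 98% of changes of 1 log2 unit with 8 false calls. The simulation drew library sums, not single cells, with 1 set spread for all genes. Both cell sets of an embryo shared its deviation, which cancels in the paired fit. The figures from simulated data therefore need not hold for these data. Python 3.11.15 and scipy 1.17.1 gave exact permutation tests.

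The members and gene lists were chosen with earlier results of these data known. Named genes are called genes with the largest changes at an average log2 level of 5 or more, with 1 direction in 5 of 5 embryos for the paired comparison (planned as 5 of 6), and leading members of each list. The gate genes and Tnnt2 were among the genes fitted but are described without tests, and mitosis genes without p-values.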

Additional observations from a re-analysis of the deposited data

Results flagged for a closer look

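Of 33 groups of 5 embryo values examined for a sample far from the others, 3 had one. A chance rate of about 1 in 20 was not measured here, and the groups share the same 5 embryos. The median difference of the calcium handling list was -0.09 in Nkx2-5Cre E8.25, against -0.40 to -0.33 in the other 4 embryos. For Ikbip it was -0.62 in Isl1Cre E9.25 against -1.08 to -1.0 elsewhere, and for Rab4a it was -1.97 in Isl1Cre E9.25 against -0.78 to -0.50.

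The difference between gated and comparison cells differed between lineages for 1 gene, Gins1 (-3.31, limma adjusted p = 0.013), with the library values given above.

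Cells outside the report's comparisons also passed the gate. At E7.75, 96 of 114 Tnnt2-high cells had 3 or more gate genes (84.2%), and so did 125 of 161 Tnnt2-low cells of E8.25 to E9.25 (77.6%). Both shares lie above the 56.4% of Tnnt2-high cells of E8.25 to E9.25. The differences were not tested, and the shares pool libraries. The 2 Isl1Cre E8.25 libraries gave 33 and 36 of the Tnnt2-low cells, and 97.0% and 97.2% of these passed. In Nkx2-5Cre E9.25 replicate 2 the Tnnt2-low share was below the Tnnt2-high share (44.4% against 52.0%). In Isl1Cre E8.75 replicate 1 they were equal (50%), and in every other library the Tnnt2-low share was higher.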

How the results depend on the processing

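Depth, the number of embryos and the choice of unit set the limits. Of 3683 values of 142 named genes between gated and comparison cells, 3253 kept their side of the threshold, 387 fell below it and 42 newly passed; Fgf8 reversed, to 0.205 with comparison cells of 0 gate genes. With stage, 230 of 624 values of 26 genes fell below it, and between lineages 67 of 239 values of 10 genes. The causes were not tested.

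Gated against comparison cells gave 491 called genes, and 759 with libraries as units, 176 with no replicate block for the embryo, 174 with no filter on low values, 931 by DESeq2 (633 by edgeR), 210 with comparison cells of 0 gate genes, 204 with thinned cells, 248 with at least 3 cells per set (chosen after seeing the data) and 373 to 515 leaving out 1 library. Stage in gated cells gave 26, and 61 with libraries, 64 with a replicate block, 16 with a pseudocount of 10, 0 with no filter, 199 by DESeq2, 46 with at least 4 gate genes, 44 with gate genes at 100 CPM, 40 with cells of at least 20000 counts and 1 to 40 leaving out 1 library. Lineage gave 10, and 38 with libraries, 29 with a replicate block, 0 with no filter, 2 by edgeR, 43 by DESeq2 and 0 to 15 leaving out 1 library, with 0 without Isl1Cre E9.25.

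The change of the difference with stage gave 0 genes, 5 by DESeq2, and 0 to 4 leaving out 1 library (4 without Isl1Cre E9.25). For lineage it gave 1, and 2 by edgeR and by DESeq2, with 0 of these shared, so neither called Gins1; it gave 0 with libraries, a replicate block, no filter, 4 gate genes, 100 CPM, comparison cells of 0 gate genes, thinned cells, at least 20000 counts or 3 cells per set, and 0 to 89 leaving out 1 library (89 without Isl1Cre E9.25).

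With libraries as units, 3 exact permutation tests passed: counts per cell (0.549, p = 0.0195), the gated share with Nppa (13.2 points, p = 0.0195) and the share between lineages (13.5 points, p = 0.037; 11.6 points and p = 0.188 in a replicate block). Replicate numbers only name libraries: deviations of same-numbered libraries correlated at -0.033 to 0.135 over 10 pairs of groups, 1 of them above 0.1.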

Other observations

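Genes outside the lists also differed between gated and comparison cells, and those named here were chosen after their values were seen. The gate holds cells with RNA of S, G2 and M phase. A rise of genes that follow the cell cycle is thus partly given by the choice of cells, and p-values of rising genes are no independent evidence of division. Kpna2, an import receptor, stood at 1.74, Ezh2, the histone methyltransferase of Polycomb, at 0.76, and Dek and Hmgn2, chromatin proteins, at 0.75 and 0.59. The transport genes Ranbp1 and Ran stood at 0.46 and 0.35, and the splicing factors Srsf2 and Srsf3 at 0.44 and 0.34. The chaperone gene Hspa8 had 2800 against 2130 CPM (0.34 ± 0.04, limma adjusted p = 0.00011), and Npm1, the nucleolar protein, stood at 0.29 (adjusted p = 0.003). In the other direction, the phosphatase gene Dusp22 had 1700 against 2972 CPM (-0.86 ± 0.06, adjusted p = 9.81e-08) and the noncoding 5430431A17Rik 1074 against 1810 CPM (-0.82 ± 0.07, adjusted p = 1.12e-06).

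Imprinted genes are expressed from 1 parental copy, and many of them are tied to fetal growth. The list of 40 was drawn up after seeing that Cdkn1c and Airn fell, so its count is no independent evidence. Of 30 tested genes 9 fell and 0 rose, beside 2.18% of all genes called lower. In 25 the difference was negative, with a median of -0.25 against 0.01 over all genes. Beside Cdkn1c and Airn they were Meg3 (-0.57, adjusted p = 0.00106) and Rian (-0.79, adjusted p = 0.0397), noncoding RNAs of 1 cluster, Mest (-0.62, adjusted p = 0.0173), Grb10 (-0.33, adjusted p = 0.0218), Kcnq1ot1 (-0.35, adjusted p = 0.0166), Ddc (-0.64, adjusted p = 0.0434) and Gnas (-0.29). Kcnq1ot1 lies antisense to Kcnq1. With thinned cells 1 of 29 fell and the median was -0.11, with comparison cells of 0 gate genes 2 fell, and without TMM scaling 5.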
